A study of Mus musculus with 24 samples.

Results

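The genes described here are 39 genes that type I interferon induces and whose products act against viruses. They were picked by name from the 53465 genes of the count table. The rule uses no measured value, but the list was chosen with earlier results of these data known. Comparisons of these genes with all genes carry that limit. The set holds 3 interferon-responsive transcription factors, 6 sensors of foreign RNA or DNA, 3 IFIT proteins, 5 oligoadenylate synthetases and 8 restriction factors. It also holds 3 genes of the ISG15 system, 4 genes of the PARP and DTX families, 2 nuclear body genes and 5 others. RNA was measured in natural killer (NK) cells sorted from B16F10 melanomas, a mouse tumour line, on day 14 after injection under the skin of wild type female B6 mice. The 4 populations were CD27+CD69+, CD27+CD69-, CD11b+CD69+ and CD11b+CD69-, with 6 libraries each, and each library was made from 100 cells with a kit that copies whole polyadenylated transcripts. In NK cells CD27 marks earlier and CD11b later stages of maturation, and CD69 is a receptor that appears soon after activation and on cells held in tissue. The labels name no interferon or drug treatment, no group was free of tumour, and the labels do not say how CD11b was gated in the CD27+ cells or CD27 in the CD11b+ cells.

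Type I interferons bind a receptor of the chains IFNAR1 and IFNAR2, whose kinases phosphorylate STAT proteins, STAT2 among them. With IRF9 these form a complex that enters the nucleus and binds the interferon-stimulated response element (ISRE) in the promoters of its targets. The products sense viral nucleic acid, cut RNA, block translation, hold back budding particles, or tune the signal itself, and many of the genes lie next to each other in the genome.

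The promoter letters of 7 genes called higher with CD69 in CD11b+ cells are shown, to let the reader see how the ISRE sits in them. RefSeq windows of the build GRCm38.p6, 250 bases before to 50 after a start site, were at hand for 29 of the 39 genes, and the 160 bases directly before the start are printed 5' to 3' on the strand of the gene, with matches to the ISRE core in capitals. The core searched was GAAA, any 2 bases, then GAAA, on either strand, so that a match on the other strand reads TTTC, any 2 bases, then TTTC. The stretches are Ifit3 at chr19:34583369-34583528 on the plus strand, Ifit1 at chr19:34640729-34640888 on the plus strand, Isg15 at chr4:156200819-156200978 on the minus strand, Rsad2 at chr12:26456453-26456612 on the minus strand, Bst2 at chr8:71537473-71537632 on the minus strand, Oas1a at chr5:120907526-120907685 on the minus strand and, as a promoter with no match, Ifi44 at chr3:151749911-151750070 on the minus strand.
Ifit3: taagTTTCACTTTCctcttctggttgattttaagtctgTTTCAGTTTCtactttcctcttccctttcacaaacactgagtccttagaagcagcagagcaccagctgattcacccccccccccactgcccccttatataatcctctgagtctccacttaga
Ifit1: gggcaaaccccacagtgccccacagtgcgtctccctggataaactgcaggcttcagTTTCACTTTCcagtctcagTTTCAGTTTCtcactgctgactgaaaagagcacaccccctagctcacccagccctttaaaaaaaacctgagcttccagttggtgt
Isg15: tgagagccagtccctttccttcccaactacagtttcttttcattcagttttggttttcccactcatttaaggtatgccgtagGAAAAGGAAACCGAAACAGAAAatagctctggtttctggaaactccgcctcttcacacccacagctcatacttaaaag
Rsad2: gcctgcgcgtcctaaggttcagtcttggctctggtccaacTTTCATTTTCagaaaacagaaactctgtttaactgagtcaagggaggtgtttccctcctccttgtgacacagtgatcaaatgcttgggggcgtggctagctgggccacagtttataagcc
Bst2: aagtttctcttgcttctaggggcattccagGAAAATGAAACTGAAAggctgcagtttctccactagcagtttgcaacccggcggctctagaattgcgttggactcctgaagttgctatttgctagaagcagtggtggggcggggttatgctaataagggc
Oas1a: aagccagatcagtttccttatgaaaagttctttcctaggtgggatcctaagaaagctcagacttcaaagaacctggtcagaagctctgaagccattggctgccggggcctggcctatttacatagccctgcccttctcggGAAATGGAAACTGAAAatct
Ifi44: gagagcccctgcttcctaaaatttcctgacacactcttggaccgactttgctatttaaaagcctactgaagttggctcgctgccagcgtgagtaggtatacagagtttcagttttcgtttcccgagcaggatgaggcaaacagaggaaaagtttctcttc

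Ifit3 holds 2 matches that begin 156 and 122 bases before the start, and Ifit1 holds 2 that begin 104 and 85 bases before it. In Isg15 there are 3 overlapping matches, at 78, 72 and 66 bases before the start, so that the capitals form 1 run. Rsad2 has a single match at 120 bases. Bst2 has 2 overlapping matches at 130 and 124 bases, and Oas1a has 2 at 20 and 14 bases before the start. Over all members with a window, 12 of 29 (41.4%) hold an ISRE core, against 1079 of 27025 genes (3.99%) with a window of the same length. The palindrome TTCNNNGAA, the core of the gamma-activated site (GAS), lies in 7 of 29 members (24.1%), against 9.55% of all windows, and 1 GAS match in Bst2 overlaps its first ISRE match. Such matches describe letters and are not shown to be bound, and Ifi44, Isg20, Oasl1, Oasl2 and Irf7 have no ISRE core in these windows. Repeats with another spacing, such as the tttcgtttc within the stretch printed for Ifi44, do not count as a match.

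**Figure D1:**
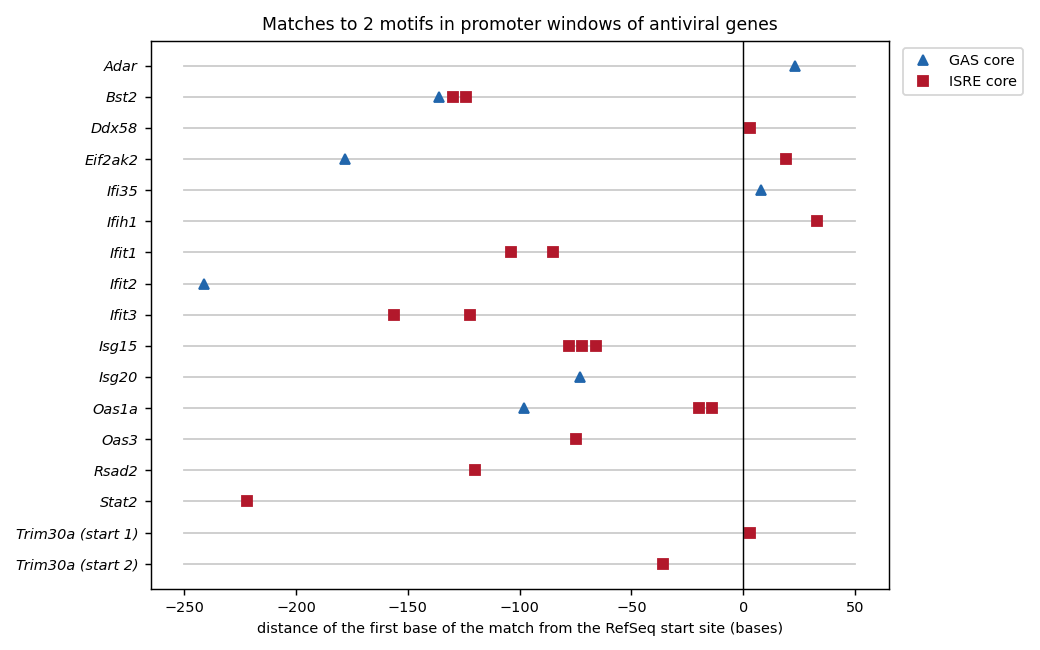
Position of each motif match in the promoter windows of the antiviral genes with at least 1 match. The horizontal axis is the distance in bases of the first base of the match from the RefSeq start site, rows are genes (Trim30a has 2 start sites), red squares are ISRE cores and blue triangles are GAS cores. The ISRE matches of Ifit1, Ifit3, Isg15, Rsad2 and Bst2 all lie between 156 and 66 bases before the start.

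Totals ran from 1213914 to 2671533 counts per library. Levels are given as CPM, the count scaled for library size with edgeR's TMM factors, and 3 values for a population are the lowest, median and highest of its 6 libraries. Differences are log2 fold changes ± standard error from 1 edgeR quasi-likelihood fit over all 24 libraries, and a gene is called where its Benjamini-Hochberg adjusted p over the 10536 genes tested is under 0.05. The NK gene Ncr1 was high throughout, at 1190, 1550 and 1890 CPM in CD27+CD69+ cells, 1050, 1210 and 1460 CPM in CD27+CD69- cells, 1910, 2170 and 2290 CPM in CD11b+CD69+ cells and 2330, 2580 and 2850 CPM in CD11b+CD69- cells. These values go against the label that gives the cell type as melanoma. The sorted proteins showed at the RNA level for Cd27 (called higher in CD27+ cells in both CD69 states), Itgam, which encodes CD11b (called lower in CD27+ cells in both), and Cd69 in CD11b+ cells, while the Cd69 difference in CD27+ cells, 0.67 ± 0.20, had an adjusted p of 0.0907. RNA of other cells was also present: the summed level of 9 fibroblast markers was 0 to 236 CPM in CD27+CD69+ libraries, 266 to 10800 CPM in CD27+CD69- libraries, 0 in all CD11b+CD69+ libraries and 0 to 7.99 CPM in CD11b+CD69- libraries. Replicate 6 of CD27+CD69- stood apart, with the lowest total, 5490 CPM of 6 melanoma markers, and 291 CPM of 12 macrophage markers, against 22.4 to 84.1 CPM in the other libraries of that population. Because libraries hold cells in bulk, fewer cells that express a gene and less RNA per cell cannot be told apart.

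Most antiviral genes were lowest in CD11b+CD69- cells. Of the 39 genes, 30 had their lowest mean there, against 7 in CD27+CD69- cells, 2 in CD11b+CD69+ cells and 0 in CD27+CD69+ cells. The highest mean fell in CD11b+CD69+ cells for 19 genes, in CD27+CD69+ cells for 16, in CD27+CD69- cells for 3 and in CD11b+CD69- cells for 1. Lowest and highest means were not counted in this way over all genes. In each CD27+ library, with or without CD69, 38 or 39 of the genes had a count, as did 35 to 38 in each CD11b+CD69+ library and 30 to 32 in each CD11b+CD69- library, although the last had the highest median total of the 4 populations, 2312792 counts. Over all genes, 12371 to 13138 were detected in CD27+CD69+ libraries, 13287 to 14540 in CD27+CD69- libraries, 11909 to 12132 in CD11b+CD69+ libraries and 11606 to 12046 in CD11b+CD69- libraries. Rsad2, Ifi44 and Oas2 had 0 counts in all 6 CD11b+CD69- libraries, which allows up to 1.42 CPM in the shallowest of them, by counting error only.

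**Figure D2:**
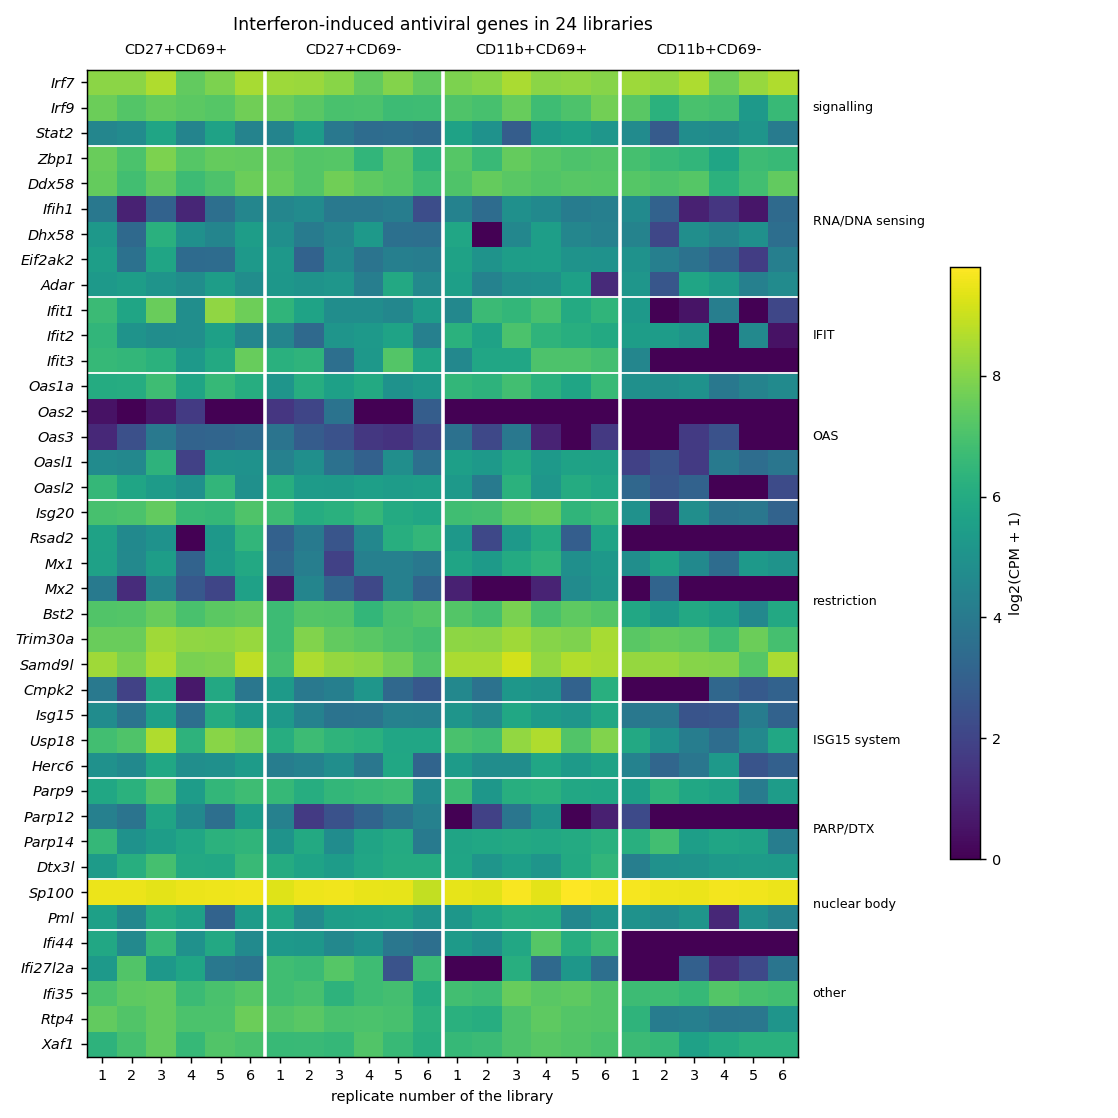
Level of the 39 antiviral genes, as log2(CPM + 1), in the 24 libraries. Columns are libraries grouped by population and rows are genes grouped by role; the darkest cells are libraries without a count. The right block, CD11b+CD69-, holds the most dark cells, with Rsad2, Ifi44 and Oas2 dark in all 6 of its libraries, while Sp100 and Irf7 are bright in every library.

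Per length, the RNAs differed widely in level. Mean CPM per kilobase of merged exons was highest in CD27+CD69- cells for Ifi27l2a (207), followed there by Bst2 (137) and Sp100 (89.0), while in CD11b+CD69+ cells Bst2 led with 170, followed by Sp100 with 101. In CD11b+CD69- cells the order began with Sp100 (101), Irf7 (84.2) and Ifi35 (66.0). Oas3 reached at most 1.06 CPM per kilobase, in CD27+CD69+ cells, and Oas2 at most 0.891, in CD27+CD69- cells.

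In CD27+ cells 1 of the 38 members tested was called higher with CD69 and 0 lower, against 0.55% and 1.3% of all genes, with a median of 0.44 over the members and -0.01 over all genes. No member had its groups apart there, but the share of all genes with groups apart is not given for this comparison. Of 38 differences 34 were positive, against 5110 of 10536 over all genes. Fibroblast markers also differed here, with all 4 tested called lower with CD69 (median -8.22). Of 13 NK genes 1 was called lower. No tested marker of macrophages, dendritic cells, T cells or B cells was called. The part of such RNA in this comparison was not tested.
In CD11b+ cells, 14 of the 38 were higher in the CD69+ cells than in the CD69- cells and 0 were lower. Over all genes tested, 1.64% were called higher and 1.1% lower. The median log2 difference was 1.39 over the members and 0 over all genes. Of the 38 differences 35 were positive, against 5235 of 10536 over all genes. For 13 members every CD69+ library was above every CD69- library, a pattern that 1.6% of all genes showed.

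Among CD69- cells, 10 members were higher in CD27+ than in CD11b+ cells and 0 lower, against 7.46% higher and 4.92% lower among all genes. The members' median was 0.83 and that of all genes 0.05, and 7 members had groups that did not overlap, which 3.65% of all genes showed. Among CD69+ cells 0 members were called in either direction, while 0.987% of all genes were higher and 0.911% lower in CD27+ cells. The members' median there was -0.02, no member had an unadjusted p under 0.05, and limma-voom called 1 (Parp12). Markers of cell types differed between these populations: 7 of 8 tested T cell markers were called higher in CD27+ cells (median 4.3). Of 13 NK genes 6 were called lower. No tested marker of fibroblasts, macrophages, dendritic cells or B cells was called. The part of these differences in the lack of calls was not tested. The CD11b+CD69- libraries enter both comparisons with many calls, so 8 genes called in both (8 of 14 and 8 of 10) share that control. The CD69 difference itself was smaller in CD27+ than in CD11b+ cells for 5 members and larger for 0. Over all genes these shares were 0.342% and 0.237%, and the members' median of this difference of differences was -1.12. CD27+CD69- libraries enter it with 266 to 10800 CPM of summed fibroblast markers, against 0 to 236 CPM in CD27+CD69+ libraries. Without the 3 CD27+CD69- libraries with over 5000 CPM, calls fell to 2 members (Rsad2 and Ifi44). Calls over all genes fell from 61 to 19. That alternative was chosen after seeing the data. The part of fibroblast RNA in the 5 calls was not tested.

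**Figure D3:**
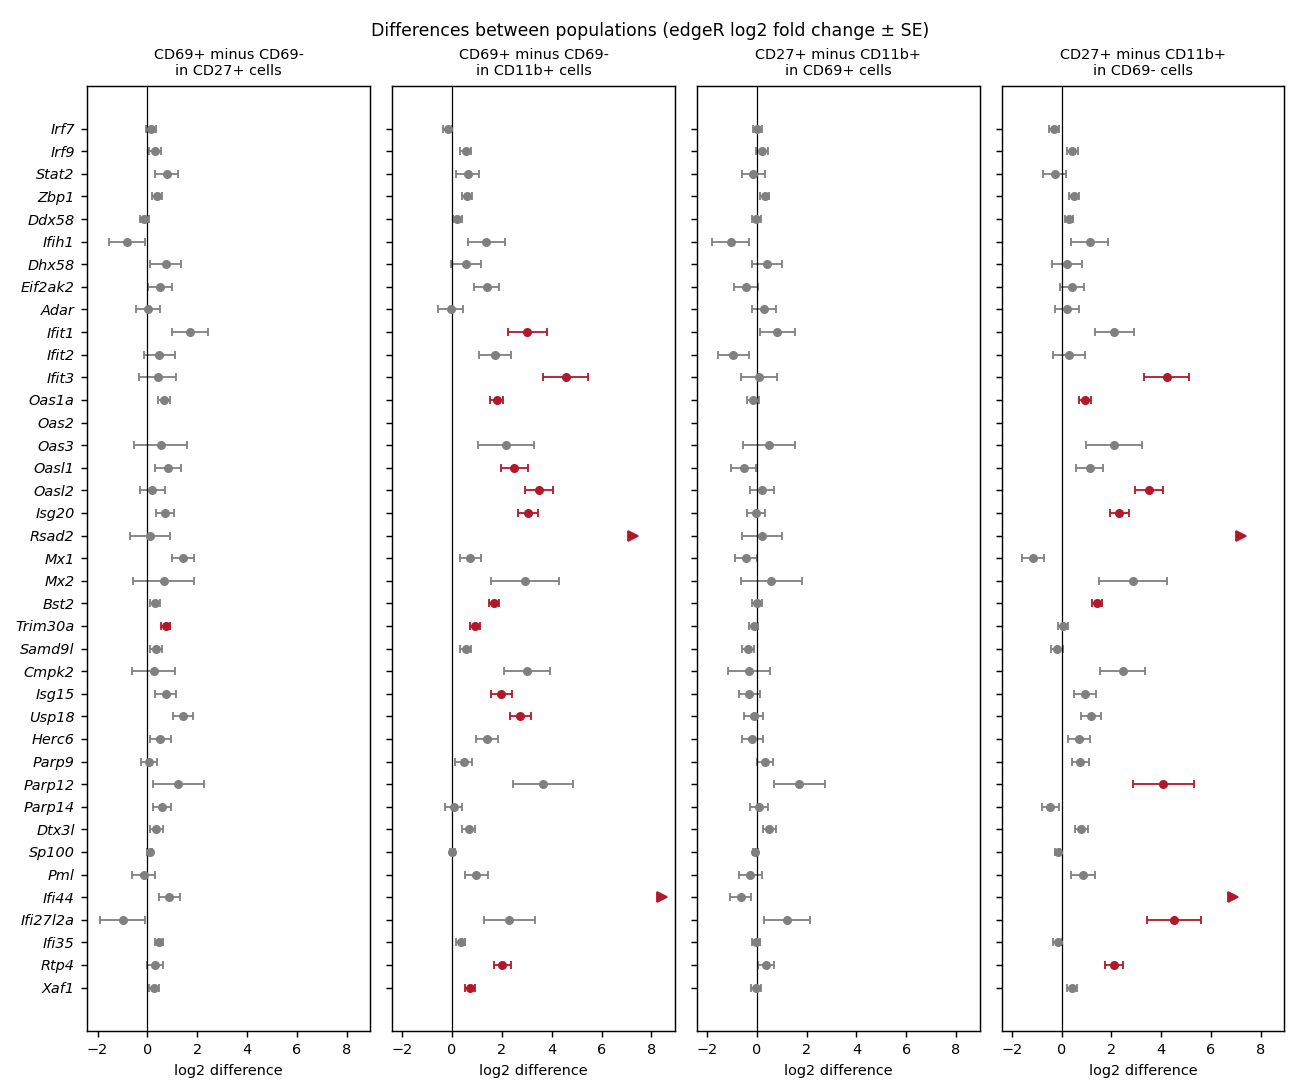
Log2 fold change ± standard error of 38 antiviral genes (rows) in 4 comparisons (panels), with called genes in red and others in grey. Triangles stand at the lower bound of genes with 0 counts in CD11b+CD69- cells, and Oas2 was not tested. Red symbols number 1 for CD69 in CD27+ cells, 14 for CD69 in CD11b+ cells, 0 for CD27+ against CD11b+ among CD69+ cells and 10 among CD69- cells.

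None of the 3 transcription factors that carry the signal was called in any comparison. Irf7, which drives the later wave of interferon production, had 174, 272 and 394 CPM in CD27+CD69+ cells, 173, 258 and 326 CPM in CD27+CD69- cells, 232, 269 and 373 CPM in CD11b+CD69+ cells and 200, 321 and 392 CPM in CD11b+CD69- cells. Its ranges overlapped throughout, and CD11b+CD69- cells had the highest mean. Irf9, the DNA-binding part of the complex with STAT2, averaged 171 ± 24.0 and 135 ± 32.4 CPM in CD27+CD69+ and CD27+CD69- cells and 148 ± 38.5 and 102 ± 41.2 CPM in CD11b+CD69+ and CD11b+CD69- cells (SD, n = 6 each). Its CD69 difference in CD11b+ cells, 0.54 ± 0.23, had an adjusted p of 0.259. Stat2 averaged between 17.8 CPM in CD27+CD69- cells and 34.5 CPM in CD11b+CD69+ cells. Irf7 shares exon bases with Phrf1 on the other strand and Irf9 with Rnf31 on its own strand, and the library kit keeps no strand, so reads of such neighbours may be mixed.

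None of the 6 sensors was called in any comparison. Ddx58, the RNA sensor RIG-I, had a median of 152, 155, 151 and 139 CPM in CD27+CD69+, CD27+CD69-, CD11b+CD69+ and CD11b+CD69- cells. Zbp1, which binds nucleic acid in the Z form, had a CD69 difference of 0.60 ± 0.20 in CD11b+ cells with an adjusted p of 0.109, and 2 of 33 other settings called it. The RNA-activated kinase PKR, gene Eif2ak2, had 31.3, 37.3 and 49.7 CPM in CD11b+CD69+ cells and 2.45, 14.8 and 30.5 CPM in CD11b+CD69- cells. These groups did not overlap, yet the difference of 1.39 ± 0.49 missed the threshold (adjusted p = 0.149). Ifih1, the sensor MDA5, averaged 7.53 to 19.5 CPM across populations, Dhx58, its relative LGP2, 18.3 to 35.5 CPM, and the RNA-editing enzyme gene Adar 28.2 to 34.8 CPM.

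The IFIT genes encode proteins that bind viral RNA ends and block translation, and the 3 measured here lie within 1 cluster on chromosome 19, between 34550694 and 34650009 of GRCm38. Ifit3 had 38.9, 82.2 and 184 CPM in CD27+CD69+ cells, 11.0, 63.0 and 142 CPM in CD27+CD69- cells, 22.9, 85.0 and 133 CPM in CD11b+CD69+ cells and 0, 0 and 21.8 CPM in CD11b+CD69- cells. In CD11b+CD69- cells 5 of 6 libraries had no count, and replicate 1 alone held the 21.8 CPM. The difference was 4.56 ± 0.91 for CD69 in CD11b+ cells (adjusted p = 0.00467) and 4.22 ± 0.91 for CD27+ against CD11b+ among CD69- cells (adjusted p = 0.00238). Its difference of CD69 differences, -4.14 ± 1.15, had an adjusted p of 0.118. Without replicate 1 of CD11b+CD69- that population was at 0, and the difference of differences was called as well (adjusted p = 0.000178). The fitted sizes then were 10.51, 10.17 and -10.08, which depend on the prior count.
Ifit1 had 27.4, 144 and 284 CPM in CD27+CD69+ cells, 22.0, 33.7 and 85.1 CPM in CD27+CD69- cells, 22.9, 86.3 and 121 CPM in CD11b+CD69+ cells and 0, 1.85 and 37.7 CPM in CD11b+CD69- cells. In CD27+ cells its CD69 difference of 1.73 ± 0.72 was not called (adjusted p = 0.317). In CD11b+ cells it was called (3.02 ± 0.78, adjusted p = 0.0363), but 11 of the 24 fits that left out 1 library, and limma-voom, lost the call. Ifit2 had 49.1, 73.0 and 129 CPM in CD11b+CD69+ cells and 0, 27.9 and 42.7 CPM in CD11b+CD69- cells. These did not overlap, yet the difference of 1.74 ± 0.64 missed the threshold (adjusted p = 0.162). Ifit3 has a near-identical copy, Ifit3b, so reads may be split between them. That copy had 0 counts in CD11b+CD69- cells and was called in the same 2 comparisons.

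The oligoadenylate synthetases make a messenger that switches on an RNA-cutting enzyme, and the Oasl genes are relatives that lack or alter this activity. Oasl2 had 29.6, 46.4 and 90.7 CPM in CD27+CD69+ cells, 40.0, 43.0 and 69.1 CPM in CD27+CD69- cells, 15.4, 46.6 and 75.3 CPM in CD11b+CD69+ cells and 0, 4.41 and 8.64 CPM in CD11b+CD69- cells. All libraries of the first 3 populations lay above all of the last. The CD69 difference was 0.20 ± 0.49 in CD27+ cells and 3.49 ± 0.57 in CD11b+ cells, where it was called (adjusted p = 0.00042), and the difference of differences, -3.29 ± 0.74, was called as well (adjusted p = 0.0331). Among CD69- cells, CD27+ cells were 3.51 ± 0.57 higher (adjusted p = 8.54e-05).
Oas1a had 52.0, 67.2 and 108 CPM in CD27+CD69+ cells, 31.2, 41.4 and 68.2 CPM in CD27+CD69- cells, 52.6, 84.9 and 112 CPM in CD11b+CD69+ cells and 14.1, 26.1 and 31.0 CPM in CD11b+CD69- cells. CD69+ and CD69- libraries overlapped among CD27+ cells (0.68 ± 0.25, adjusted p = 0.196) and did not among CD11b+ cells, where CD69+ cells were higher (1.79 ± 0.25, adjusted p = 7.29e-05). CD27+ cells were higher among CD69- cells (0.95 ± 0.25, adjusted p = 0.0107). Oasl1, which lies 11005 bases from Oasl2 on chromosome 5, had 37.3, 46.6 and 61.3 CPM in CD11b+CD69+ cells and 2.21, 7.48 and 15.6 CPM in CD11b+CD69- cells, a called difference of 2.49 ± 0.54 (adjusted p = 0.00735). Oas3 averaged 7.47, 5.05, 5.34 and 1.13 CPM in the order of the opening and was not called. Oas2 was too low to be tested, with 6 counts over the CD27+CD69+ population, 46 over CD27+CD69- and none in CD11b+ libraries.

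**Figure D4:**
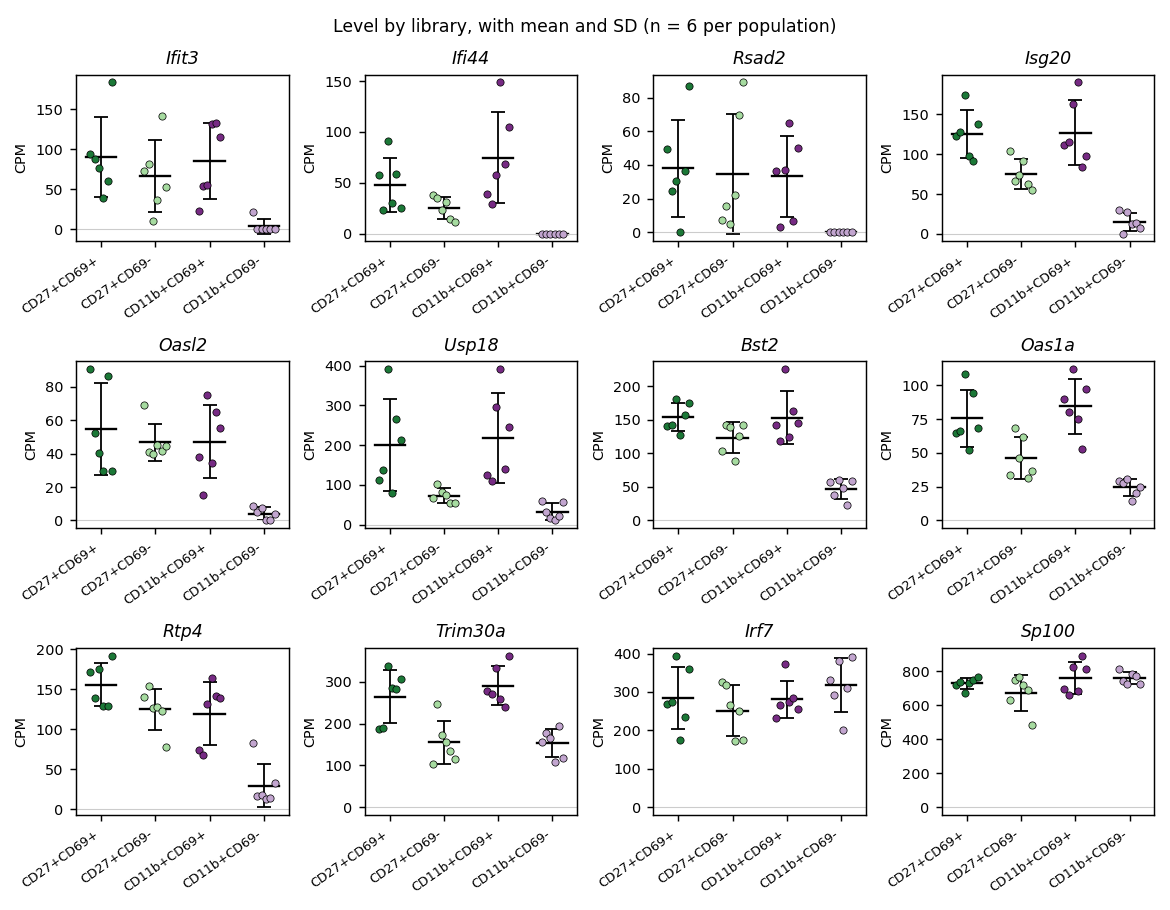
Level in CPM of 12 antiviral genes, with 1 point for each of the 6 libraries of a population, the mean as a bar and the standard deviation as whiskers. CD11b+CD69- libraries, at the right of each panel, lie at 0 for Rsad2 and Ifi44 and below all libraries of the other populations for Oasl2 and Isg20, while Irf7 and Sp100 overlap across the 4 populations.

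Of the 8 restriction factors, 4 were called higher with CD69 in CD11b+ cells. Rsad2 encodes viperin, an enzyme that makes a chain-terminating nucleotide. Its level was 0, 33.4 and 87.0 CPM in CD27+CD69+ cells, 5.06, 18.7 and 89.3 CPM in CD27+CD69- cells, 3.31, 36.7 and 65.0 CPM in CD11b+CD69+ cells and 0 in all CD11b+CD69- libraries. Against a floor of 3 counts over the 6 CD11b+CD69- libraries, CD11b+CD69+ cells were at least 154-fold higher (adjusted p = 0.000771) and CD27+CD69- cells at least 146-fold higher (adjusted p = 0.00017). Limma-voom gave an adjusted p of 0.0668 for the first. Cmpk2, a nucleotide kinase gene 12751 bases from Rsad2 on chromosome 12, had 7.46, 27.2 and 71.3 CPM in CD11b+CD69+ cells and 0, 2.94 and 8.75 CPM in CD11b+CD69- cells. That difference of 3.01 ± 0.93 was not called (adjusted p = 0.0846).
Isg20, an exonuclease that degrades RNA, had 91.6, 125 and 174 CPM in CD27+CD69+ cells, 54.5, 69.8 and 104 CPM in CD27+CD69- cells, 83.7, 113 and 190 CPM in CD11b+CD69+ cells and 0.468, 13.1 and 30.0 CPM in CD11b+CD69- cells. CD11b+CD69- cells were below the other 3 populations without overlap. The CD69 difference was not called in CD27+ cells (0.71 ± 0.36, adjusted p = 0.50) and was called in CD11b+ cells (3.04 ± 0.40, adjusted p = 2.21e-05), and the difference between the 2 was called (-2.33 ± 0.53, adjusted p = 0.0347). Among CD69- cells, CD27+ cells were 2.32 ± 0.39 higher (adjusted p = 0.000153).
Bst2 encodes tetherin, which holds budding virus at the cell surface. Its level was 127, 150 and 181 CPM in CD27+CD69+ cells, 88.1, 133 and 142 CPM in CD27+CD69- cells, 119, 144 and 226 CPM in CD11b+CD69+ cells and 22.5, 52.8 and 59.8 CPM in CD11b+CD69- cells. Again only the last population lay apart from the rest. The CD69 difference was 0.29 ± 0.20 in CD27+ cells and 1.69 ± 0.20 in CD11b+ cells (adjusted p = 8.04e-06), with a called difference of -1.40 ± 0.28 between them (adjusted p = 0.0153), and CD27+ cells were 1.41 ± 0.20 higher among CD69- cells (adjusted p = 2.08e-05).

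Trim30a, a feedback regulator from a family of close copies, was the single member called for CD69 in both kinds of cell. It had 187, 284 and 337 CPM in CD27+CD69+ cells, 104, 145 and 248 CPM in CD27+CD69- cells, 239, 275 and 362 CPM in CD11b+CD69+ cells and 109, 161 and 194 CPM in CD11b+CD69- cells. CD69+ cells were higher by 0.74 ± 0.19 in CD27+ cells (adjusted p = 0.0416) and by 0.92 ± 0.19 in CD11b+ cells (adjusted p = 0.00536), with no called difference between the 2 (-0.18 ± 0.27, adjusted p = 0.953). The call in CD27+ cells was lost in 9 of 24 fits without 1 library, with adjusted p up to 0.109. Mx1, a dynamin-like GTPase whose allele is defective in B6 mice, averaged 36.7 ± 18.4, 13.3 ± 6.31, 49.9 ± 19.5 and 30.0 ± 13.4 CPM (SD, n = 6 each) in CD27+CD69+, CD27+CD69-, CD11b+CD69+ and CD11b+CD69- cells. It was the member with the most negative difference for CD27+ among CD69- cells, -1.15 ± 0.44, which was not called (adjusted p = 0.0954). Mx2 had a count in 1 of 6 CD11b+CD69- libraries and Samd9l averaged 239 to 397 CPM, and neither was called.

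ISG15 is a ubiquitin-like protein, Usp18 encodes the enzyme that removes it and also dampens the receptor, and Herc6 encodes the mouse ligase. Isg15 had 10.9, 32.8 and 63.6 CPM in CD27+CD69+ cells, 12.4, 18.4 and 37.0 CPM in CD27+CD69- cells, 23.7, 37.3 and 58.1 CPM in CD11b+CD69+ cells and 4.87, 10.7 and 16.2 CPM in CD11b+CD69- cells. The ranges of the CD11b+ populations did not overlap, with a called difference of 1.98 ± 0.43 (adjusted p = 0.00764). Usp18 had 79.4, 175 and 392 CPM in CD27+CD69+ cells, 54.5, 71.1 and 103 CPM in CD27+CD69- cells, 109, 193 and 392 CPM in CD11b+CD69+ cells and 10.3, 26.7 and 58.7 CPM in CD11b+CD69- cells. Its CD69 difference in CD27+ cells, 1.43 ± 0.39, was not called (adjusted p = 0.054), though 16 of the 33 other settings called it. In CD11b+ cells it was called (2.74 ± 0.41, adjusted p = 0.000154). Herc6 had a difference of 1.39 ± 0.44 for CD69 in CD11b+ cells that missed the threshold (adjusted p = 0.0922).

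Of the PARP and DTX genes, whose products add ADP-ribose or ubiquitin, Parp12 was called once. It had 10.8, 21.3 and 51.8 CPM in CD27+CD69+ cells, 2.21, 10.3 and 19.0 CPM in CD27+CD69- cells, 0, 1.79 and 32.0 CPM in CD11b+CD69+ cells and 0, 0 and 3.64 CPM in CD11b+CD69- cells. CD27+ libraries all held counts, while 2 of 6 CD11b+CD69+ and 5 of 6 CD11b+CD69- libraries had none. CD27+ cells were 4.09 ± 1.21 higher among CD69- cells (adjusted p = 0.0238), a difference that rests on 8 counts in 1 CD11b+CD69- library. Dtx3l and Parp9, which act as a pair and overlap each other on opposite strands of chromosome 16, averaged 33.0 to 74.1 and 48.1 to 83.9 CPM and were not called, and nor was their neighbour Parp14, at 41.4 to 63.7 CPM. For Dtx3l all CD27+CD69- libraries lay above all CD11b+CD69- libraries, at 41.4, 59.0 and 65.0 CPM against 17.3, 35.2 and 40.6 CPM (0.80 ± 0.27, adjusted p = 0.0517), a difference that 11 of the 33 other settings called. The nuclear body genes were not called: Sp100 was at a median of 734, 704, 755 and 758 CPM in CD27+CD69+, CD27+CD69-, CD11b+CD69+ and CD11b+CD69- cells, and Pml, the scaffold of these bodies, at 43.8, 44.0, 43.6 and 27.3 CPM.

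Of the remaining 5 genes, 3 were called higher with CD69 in CD11b+ cells. Ifi44, a cytosolic protein of unsettled function, had 23.7, 44.0 and 91.1 CPM in CD27+CD69+ cells, 11.1, 27.1 and 37.5 CPM in CD27+CD69- cells, 29.2, 63.2 and 149 CPM in CD11b+CD69+ cells and 0 in every CD11b+CD69- library. CD11b+CD69+ cells were at least 345-fold higher (adjusted p = 5.59e-08) and CD27+CD69- cells at least 118-fold higher (adjusted p = 1.94e-07) than a floor of 3 counts over the 6 CD11b+CD69- libraries. For Ifi44 (adjusted p = 1.4e-05) and Rsad2 (adjusted p = 0.0153) the CD69 difference was also called smaller in CD27+ than in CD11b+ cells, though with a group at 0 the fitted sizes have no fixed meaning.
Rtp4, a chaperone of receptors, had 129, 155 and 192 CPM in CD27+CD69+ cells, 77.5, 128 and 154 CPM in CD27+CD69- cells, 67.3, 135 and 164 CPM in CD11b+CD69+ cells and 13.3, 17.1 and 82.8 CPM in CD11b+CD69- cells. Replicate 1 of the last population, at 82.8 CPM, reached into the ranges of CD27+CD69- and CD11b+CD69+ cells, while its own population otherwise ended at 33.1 CPM. The differences were 2.02 ± 0.34 for CD69 in CD11b+ cells (adjusted p = 0.000732) and 2.11 ± 0.35 for CD27+ among CD69- cells (adjusted p = 9.4e-05). The apoptosis factor gene Xaf1 had a called CD69 difference of 0.72 ± 0.20 in CD11b+ cells (adjusted p = 0.0475), which 19 of the 33 other settings lost, 16 of them among the 24 fits without 1 library, with adjusted p in those up to 0.117. Ifi35 averaged 99.8 to 144 CPM and was not called.

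Ifi27l2a, a mitochondrial protein gene with a short transcript, was high in CD27+CD69- cells, at 4.65, 104 and 149 CPM, against 0, 2.47 and 13.1 CPM in CD11b+CD69- cells (4.51 ± 1.07, adjusted p = 0.00555). In CD27+CD69+ cells it had 12.4, 37.6 and 140 CPM, and in CD11b+CD69+ cells 0, 10.1 and 70.3 CPM. Of the CD27+CD69- libraries, 5 held 101 to 149 CPM, with 3030 to 10800 CPM of summed fibroblast markers, and replicate 5 held 4.65 CPM, with 266 CPM of those markers. Outside that population, replicate 2 of CD27+CD69+ held 140 CPM and CD11b+CD69+ libraries reached 70.3 CPM, with those markers at 0. The part of fibroblast RNA in this result was not tested. For the 10 calls among CD69- cells, fibroblast markers also differed between the groups compared: 9 of 9 had a count in CD27+CD69- libraries, while Col6a1, Dcn, Lum, Pdgfra and Pdgfrb were at 0 in CD11b+CD69- libraries. Markers of other cells differed there too. Summed T cell markers were 1010 to 2620 CPM in CD27+CD69- and 868 to 1220 CPM in CD11b+CD69- libraries, and 7 of the 8 tested were called higher in CD27+ cells, with a median log2 difference of 5.22. Summed NK genes were 10800 to 19400 CPM in CD27+CD69- and 40100 to 47100 CPM in CD11b+CD69- libraries, and 12 of 13 were called lower. Of the markers tested, 1 of 3 for macrophages, 1 of 4 for dendritic cells and 1 of 1 for B cells were called higher. The part of these differences in the 10 calls was not tested. Leaving out the 3 CD27+CD69- libraries with over 5000 CPM, an alternative chosen after seeing the data, gave 9 calls, without Oas1a (adjusted p = 0.113). With summed macrophage and fibroblast markers as covariates 2 calls (Ifi44 and Oasl2) passed, while the estimates of Ifit3 and Isg20 were 5.15 and 2.51 with adjusted p of 0.197 and 0.385. Over all genes, calls went from 1304 to 874 without those libraries and to 63 with the covariates.

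**Figure D5:**
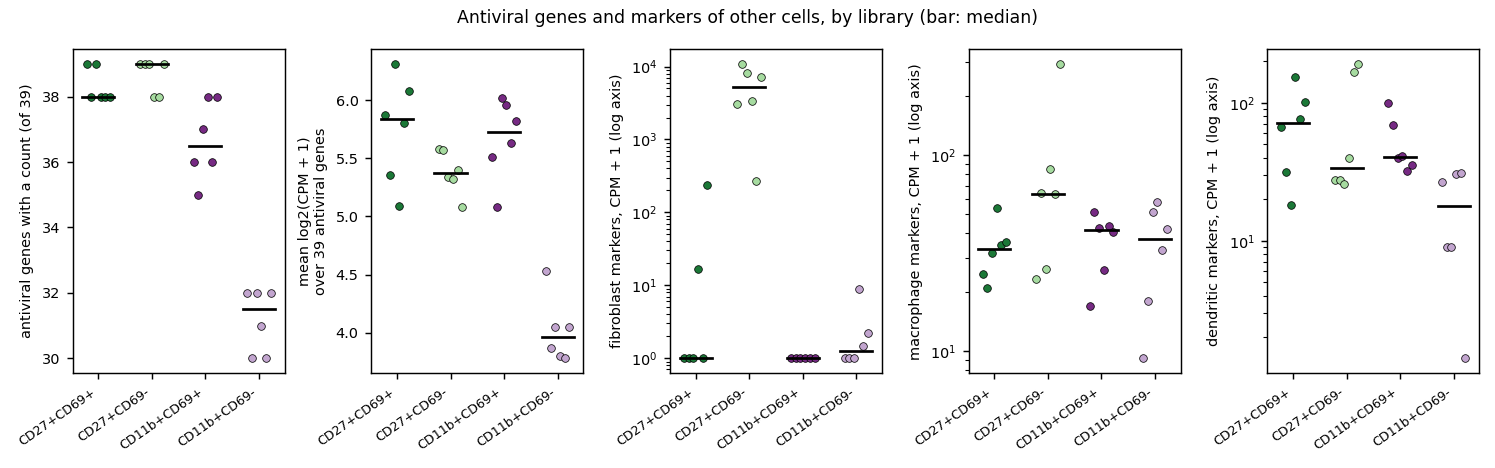
For each library, the number of antiviral genes with a count, their mean log2(CPM + 1), and the summed CPM of markers of fibroblasts, macrophages and dendritic cells on log axes, by population with the median as a bar. CD11b+CD69- libraries hold 30 to 32 genes with a count and the lowest means, 3.78 to 4.53, and fibroblast markers reach 266 to 10800 CPM in CD27+CD69- libraries.

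In the CD11b+ comparison, by contrast, fibroblast markers were at 0 in CD69+ libraries and at most 7.99 CPM in CD69- libraries, and the summed macrophage markers were 16.0 to 50.2 CPM in CD69+ and 8.18 to 56.7 CPM in CD69- libraries, with Mrc1 at 0 in both. Summed dendritic markers were 31.1 to 98.0 CPM in CD69+ and 0.408 to 29.9 CPM in CD69- libraries. Siglech, Flt3, Clec9a and Cd209a were at 0 in both. All 4 tested markers were higher in CD69+ cells, with a median log2 difference of 1.44, though none was called. Zbtb46 had 18.6 to 45.8 CPM in CD69+ and 0 to 13.2 CPM in CD69- libraries. Summed T cell markers were 1140 to 1500 CPM in CD69+ and 868 to 1220 CPM in CD69- libraries, with 1 of the 8 tested called higher, and 2 of 13 NK genes were called lower. Summed B cell markers were 308 to 459 CPM in CD69+ and 61.4 to 266 CPM in CD69- libraries, with Ms4a1 and Pax5 at 0 in both and the 1 marker tested called higher. The part of such RNA in the 14 calls was not tested.

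Neither chain of the type I interferon receptor was called in any comparison. Ifnar1 had 102, 143 and 253 CPM in CD27+CD69+ cells, 91.7, 119 and 287 CPM in CD27+CD69- cells, 114, 196 and 285 CPM in CD11b+CD69+ cells and 106, 157 and 192 CPM in CD11b+CD69- cells, and Ifnar2 averaged 112, 98.7, 84.4 and 75.5 CPM. Their ranges overlapped. Of 21 interferon genes, 20 had 0 counts in all libraries, and the remaining one, Ifng, which encodes the type II interferon, averaged 144 ± 19.3, 175 ± 75.9, 359 ± 65.6 and 447 ± 60.1 CPM (SD, n = 6 each) in CD27+CD69+, CD27+CD69-, CD11b+CD69+ and CD11b+CD69- cells. It was lower in CD27+ than in CD11b+ cells by edgeR, -1.32 ± 0.21 among CD69+ cells (adjusted p = 0.000334) and -1.32 ± 0.21 among CD69- cells (adjusted p = 6.15e-05), and was not called for CD69.

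Of 18 receptor and signalling genes tested, the chains above included, 0 were called higher and 1 lower for CD69 in CD11b+ cells (Irf8, -0.70 ± 0.16, adjusted p = 0.00928), and 1 was higher for CD69 in CD27+ cells (the phosphatase gene Ptpn6, 0.57 ± 0.15, adjusted p = 0.0367). Over all genes tested, 1.64% were higher and 1.1% lower for CD69 in CD11b+ cells, and 0.55% and 1.3% for CD69 in CD27+ cells. Among CD69- cells 3 of the 18 were higher and 3 lower in CD27+ cells, against 7.46% and 4.92% of all genes. Ifngr2, a chain of the interferon gamma receptor, had 6.64, 31.7 and 50.6 CPM in CD27+CD69- cells and 0 counts in both CD11b+ populations, and so was at least 127-fold higher than the floor (adjusted p = 0.00252), beside the fibroblast RNA of those libraries. Socs3, a feedback inhibitor, was also higher (0.97 ± 0.28, adjusted p = 0.0213), while Irf8 (-2.12 ± 0.16, adjusted p = 9.08e-10), Ifngr1 (-0.53 ± 0.12, adjusted p = 0.00205) and Il10rb (-0.55 ± 0.13, adjusted p = 0.00313) were lower. Among CD69+ cells Irf8 alone was called (-1.44 ± 0.16, adjusted p = 1.35e-06). Of 10 upstream sensing genes tested, Tmem173, which encodes STING, was the single one called, higher with CD69 in CD11b+ cells (0.54 ± 0.14, adjusted p = 0.0367), and 10 of 24 fits without 1 library lost it.

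A list of 48 other interferon-induced genes, 45 of them tested, had 5 genes higher, 1 lower and a median of 0.48 for CD69 in CD11b+ cells. Over all genes tested, 1.64% were higher and 1.1% lower there, with a median of 0. The secreted glycoprotein gene Lgals3bp had 608, 721 and 921 CPM in CD11b+CD69+ cells and 288, 310 and 458 CPM in CD11b+CD69- cells (1.16 ± 0.13, adjusted p = 2.23e-06). Apobec3, a deaminase that mutates viral DNA, followed with 0.89 ± 0.13 (adjusted p = 0.000133), Shisa5 with 0.77 ± 0.12 (adjusted p = 0.000264), and the membrane protein gene Ifitm3, which blocks viral entry, with 4.29 ± 0.77 (adjusted p = 0.00162). Ifit3b was higher (at least 37.9-fold above the floor, adjusted p = 0.0256), and Ifitm10 was lower (-0.65 ± 0.16, adjusted p = 0.0217).
Among CD69- cells 10 of the 45 were higher and 1 lower in CD27+ cells, with a median of 0.31. Over all genes tested, 7.46% were higher and 4.92% lower there, with a median of 0.05. Ifitm3 had 243, 436 and 667 CPM in CD27+CD69- cells and 0, 1.22 and 7.08 CPM in CD11b+CD69- cells (7.58 ± 0.80, adjusted p = 4.45e-07). Ifitm2 (6.73 ± 1.17, adjusted p = 0.000191), Phf11d (adjusted p = 0.00201, resting on 1 count in CD11b+CD69- libraries, with a ratio of 325 and a counting interval of 57.9 to 12900) and Lgals3bp (0.89 ± 0.13, adjusted p = 2.08e-05) were also higher, and Ifitm10 was lower (-0.94 ± 0.16, adjusted p = 0.000172). For CD69 in CD27+ cells 0.55% of all genes tested were higher and 1.3% lower. The list had 1 gene higher there (Epsti1, 0.49 ± 0.13, adjusted p = 0.0488) and 2 lower, Ifitm3 (-3.45 ± 0.61, adjusted p = 0.00196) and Ifitm2 (-3.95 ± 0.99, adjusted p = 0.0317). Fibroblast markers were likewise lower in CD27+CD69+ than in CD27+CD69- libraries, and without the 3 libraries richest in them the differences were -2.96 for Ifitm3 (adjusted p = 0.0546) and -3.73 for Ifitm2 (adjusted p = 0.274), in a smaller group of 3 CD27+CD69- libraries.
Among CD69+ cells 0 of the 45 were called, and the difference of CD69 differences was called for 2, Ifitm3 (-7.73 ± 0.98, adjusted p = 0.000155) and Lgals3bp (-0.83 ± 0.18, adjusted p = 0.028). Over all genes tested, 0.987% were higher and 0.911% lower among CD69+ cells. The difference of differences was negative and called for 0.342% of all genes, and positive and called for 0.237%.

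Set beside the promoters, 7 of the 12 genes with an ISRE core in a window were called for CD69 in CD11b+ cells (Bst2, Ifit1, Ifit3, Isg15, Oas1a, Rsad2 and Trim30a), against 5 of the 17 with a window and no match (Ifi44, Isg20, Oasl1, Oasl2 and Xaf1). Of the 9 tested genes without a window, 2 were called. The ISRE-bearing genes that were not called were Ddx58, Eif2ak2, Ifih1, Oas3 and Stat2, of which Ddx58, Eif2ak2 and Ifih1 carry their match after the start site. So does a window of the called gene Trim30a, whose other window has its match before the start. These are counts, and no difference between the groups was tested.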

How the data were processed

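The authors deposited 1 table of raw read counts per gene for 24 libraries, unnormalised per the values, which are whole numbers. Per the submitters' processing notes, the build was GRCm38 and HTSeq and Picard were used; versions, the strand setting and the treatment of multi-mapping reads are not given in the sources used. Libraries came from 100 sorted cells, SMART-Seq v4 and Nextera XT, per the labels' protocols, with no molecular identifiers, so amplified copies count as reads, and any floor given reflects counting error alone. Columns were matched to samples by the names in the labels.

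Deposited counts were filtered with filterByExpr (minimum count 10), leaving 10536 of 53465 genes and 38 of the 39 antiviral genes, and scaled by TMM (factors 0.958 to 1.06). edgeR 4.0.16 quasi-likelihood tests in R 4.3.3 used 4 population means over all 24 libraries, with Benjamini-Hochberg adjusted p-values over all genes tested and a threshold of 0.05. The code was tested on simulated data. Alternatives used DESeq2 1.42.0, limma 3.58.1 (voom), RLE factors, no filter, a replicate block, 2 populations only, thinning to the smallest total, marker covariates and leaving out each library.

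Genes named outside the 39 are those of 4 pathway lists past the threshold, at most 6 with the smallest p per list and comparison, with Ifnar1, Ifnar2, Ifngr1, Ifngr2 and every interferon gene with a count; some genes of these lists are not reported here. The 39 genes and all lists were chosen with earlier results of these data known. Exon lengths and overlaps came from GENCODE vM21, and 15 of the 39 genes share exon bases with another gene. The labels number the libraries M1 to M6 without saying what the number marks, and replicate libraries differed beyond sampling noise (chi-square per degree of freedom 10.4 to 31.1 over 60 pairs). Where nothing says that libraries came from separate mice, p-values measure the spread between these libraries, which may be technical.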

Additional observations from a re-analysis of the deposited data

Results flagged for a closer look

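Of 156 sets of 6 libraries (39 genes in 4 populations), 12 held a library whose gap to its nearest neighbour exceeded Dixon's 95% critical value for 6 samples. For normally distributed values chance alone gives this in about 1 in 20 sets, a share that need not hold for CPM with many values at 0. A set with 5 libraries at 0 and 1 above it is always flagged, as with Ifit3, Mx2 and Parp12 in CD11b+CD69- cells. Sets at 0 in all 6 libraries cannot be flagged, though they count among the 156. Replicate 1 of CD11b+CD69- was the high library for 4 genes, Ifit3 (21.8 CPM, with 0 in the other 5), Rtp4 (82.8 CPM, others 13.3 to 33.1), Ifih1 (25.0 CPM, others 0.49 to 9.39) and Parp12 (3.64 CPM, others 0). In that population replicate 2 was high for Mx2 (7.96 CPM, others 0). Replicate 1 of CD27+CD69- was high for Isg15 (37.0 CPM, others 12.4 to 19.5) and Oasl2 (69.1 CPM, others 40.0 to 45.0), replicate 2 for Stat2 (42.1 CPM, others 9.48 to 20.4), and replicate 5 was low for Ifi27l2a (4.65 CPM, others 101 to 149). Replicate 2 of CD27+CD69+ was high for Ifi27l2a (140 CPM, others 12.4 to 53.1) and replicate 4 for Oas2 (2.19 CPM, others 0 to 0.503). Replicate 3 of CD11b+CD69+ was high for Irf7 (373 CPM, others 232 to 285).

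The CD69 difference was smaller in CD27+ than in CD11b+ cells by the edgeR test of the difference itself for 5 genes. On the log2 scale the difference of differences was -2.33 for Isg20, -3.29 for Oasl2, -1.40 for Bst2, -9.04 for Rsad2 and -9.43 for Ifi44. For Rsad2 and Ifi44 the fitted size depends on the prior count, since CD11b+CD69- libraries are at 0. Only these 2 stayed called without the 3 CD27+CD69- libraries richest in fibroblast markers.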

How the results depend on the processing

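Settings other than those reported gave 12 to 17 members called for CD69 in CD11b+ cells, all higher, and no called difference of a named gene changed sign under any setting run. For CD69 in CD27+ cells 1 member was called, against 0 with RLE factors, 2 with DESeq2 and 0 with marker covariates. Over all genes 195 were called there, against 192 with RLE factors, 281 with DESeq2 and 0 with marker covariates. Among CD69- cells 10 were called for CD27+ against CD11b+, and 2 with marker covariates, where all calls fell to 63 against 1304. Among CD69+ cells limma-voom called 1 against 0, with all calls at 226 against 200. The difference of CD69 differences was called for 5 members, with 61 calls over all genes. It was called for 3 members without a filter on low counts (42 calls over all genes) and for 1 with marker covariates (1 call over all genes). Without the 3 fibroblast-rich libraries, an alternative chosen after seeing the data, it was called for 2 members (19 calls over all genes). The cause of these shifts was not tested.

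Leaving out each of 24 libraries gave 0 to 2 calls for CD69 in CD27+ cells, 12 to 15 in CD11b+ cells, 10 to 12 for CD27+ among CD69- cells, 0 to 0 among CD69+ cells and 3 to 7 for the difference of differences. The value of 3 came without CD27+CD69+ replicates 2 or 4, CD27+CD69- replicate 1, CD11b+CD69+ replicate 3 or CD11b+CD69- replicate 6. Ifit1 lost its call without CD27+CD69+ replicate 1 or any of replicates 2 to 6 of either CD11b+ population (adjusted p up to 0.0940). Trim30a lost its call in CD27+ cells without CD27+CD69+ replicates 3 to 6 or CD27+CD69- replicates 1 or 3 to 6. Xaf1 lost its call without CD27+CD69+ replicates 2 or 4 to 6, CD27+CD69- replicates 2, 3 or 5, CD11b+CD69+ replicates 3 to 6 or CD11b+CD69- replicates 2 to 6. For the difference of differences, Isg20 was lost in 11 of these fits (adjusted p up to 0.0669) and Oasl2 in 8 (up to 0.0595). Among the pathway genes Tmem173 was lost in 10, Epsti1 in 7, Ifitm2 in CD27+ cells in 6, Ptpn6 and Ifit3b with CD69 in 5 each, Ifitm10 with CD69 and Lgals3bp in the difference in 4 each and Socs3 in 2. Some calls appeared instead. Without CD11b+CD69- replicate 1, Ifit3 (adjusted p = 0.000178) and Rtp4 (-2.37, adjusted p = 0.000581) were called in the difference of differences, Parp12 for CD69 in CD11b+ cells (adjusted p = 0.0160) and Ifit1 for CD27+ among CD69- cells (3.27, adjusted p = 0.00664). Without CD11b+CD69- replicate 2, Mx2 was called for CD69 in CD11b+ cells (adjusted p = 0.0391) and for CD27+ among CD69- cells (adjusted p = 0.0109). Without CD11b+CD69- replicate 4, Herc6 was called for CD69 in CD11b+ cells (1.89, adjusted p = 0.0155) and Mx1 was lower in CD27+ than in CD11b+ cells among CD69- cells (-1.33, adjusted p = 0.0422), and without CD27+CD69+ replicate 4 Mx1 was higher with CD69 in CD27+ cells (1.65, adjusted p = 0.0274). Called under all settings were 0 of 1 member for CD69 in CD27+ cells, 11 of 14 in CD11b+ cells, 2 of 10 for CD27+ among CD69- cells and 1 of 5 for the difference of differences.

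With the replicate number as a block, 1 member was called for CD69 in CD27+ cells, 13 in CD11b+ cells, 11 for CD27+ among CD69- cells, 0 among CD69+ cells and 5 for the difference of differences. The block lost Xaf1 (0.70, adjusted p = 0.0976) and, outside the 39, Epsti1 (0.50, adjusted p = 0.0603), and called Dtx3l among CD69- cells (0.84, adjusted p = 0.0358). Deviations of same-numbered libraries from their population means correlated at -0.0293 to 0.209, with 1 of 24 pairs over 0.1, so the main fit takes no pairs. For CD69 in CD27+ cells 3 of 6 libraries correlated best with their own number, against 0 or 1 of 6 in the other comparisons. Correlations this low cannot show that the numbers are not pairs. At 1213914 to 2671533 counts, 3 counts correspond to 1.12 to 2.47 CPM, which limits Oas2, Oas3, Mx2 and Parp12.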
